A study of Mus musculus with 18 samples.

Results

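Stretches of mouse chromosomes that lay in a Lamin B domain and in an H3K9me2 domain of cardiomyocytes, and in neither kind of domain in embryonic stem cells, are described here. They were chosen by the positions of the domains in 4 deposited lists, 1 for each cell type and antibody. On a 1 kb grid of chromosomes 1 to 19, unbroken stretches of 10 kb or more with this state numbered 361. They are 361 of the 7848 stretches of that length into which the 4 lists divide the autosomes, and they held 27.0 Mb, or 1.13% of the 2391 Mb between the first and last domain of each autosome. Without the distal segment of chromosome 3, which begins just before position 154363001 and holds the longest stretch, there were 360 stretches with 23.8 Mb. Such a stretch is called jointly gained below, a name for its place in the lists and not for a tested difference.

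Cardiomyocytes (CM) came from wild-type (WT) embryonic stem cells grown in 2i medium without feeders. They were differentiated through embryoid bodies with VEGF, Activin A and BMP4 and then with VEGF, bFGF and the inhibitor XAV, and were collected on day 10. Each CM list belongs to 2 WT libraries. In embryonic stem cells (ESC) the labels attach the Lamin B list to 6 libraries, 2 from WT ESC, 2 from a CMV-creERT; Hdac3f/f line with a tamoxifen-inducible Cre and no tamoxifen, and 2 from that line after 1 µg/ml tamoxifen for 24 h to delete Hdac3. They attach the H3K9me2 list of ESC to 4, of which 2 are WT and 2 are from the CMV-creERT; Hdac3f/f line without tamoxifen. The labels do not say which of these went into the ESC domains, and the CMV-creERT; Hdac3f/f line was kept on feeders with serum, unlike the WT cells. The purity of the CM cultures could not be checked, since no expression was measured.

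The nuclear lamina is a meshwork of lamins, among them the B-type lamins, that lines the inner nuclear membrane. Chromatin touching it forms long lamina-associated domains that hold few active genes. Dimethylation of lysine 9 of histone H3 (H3K9me2) is laid down mainly by the methyltransferases G9a and GLP and is typical of repressed chromatin near the nuclear edge. Which regions lie at the lamina differs in part between cell types, and heart differentiation is a setting in which such moves have been studied.

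Each list gives domains for several libraries at once and no value per library. There is thus no replicate error and no depth, no test between cell types could be made, and every value below is a description. A position outside a domain did not reach the authors' threshold and may still carry the mark. Of the autosomal sequence in neither ESC list, 2.49% lay in both CM lists (2.22% without distal chromosome 3). In the opposite direction, 0.322% of the sequence in neither CM list lay in both ESC lists. These shares are set by the same lists that chose the stretches.

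The longest jointly gained stretch was chr3:154363001-157540000 (mm9), 3177 kb, which alone made up 11.8% of the sequence. It began where the CM Lamin B domain began and stopped where the CM H3K9me2 domain stopped, while the CM Lamin B domain ran on to 159599000. The nearest ESC domain of H3K9me2 lay 133 kb before it and the nearest ESC Lamin B domain 526 kb before it, and no ESC domain followed it. No other stretch came near it in length, and what sets this segment apart was not tested.

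The 10 longest of the other 360 stretches were 306 to 722 kb long, and 5 of them lay on chromosome 16. On chromosome 7, chr7:11358001-12080000 (722 kb) filled the space between ESC domains inside a CM Lamin B domain of 2816 kb and a CM H3K9me2 domain of 2840 kb. ESC Lamin B covered 66.2% of that CM Lamin B domain, and ESC H3K9me2 covered 66.5% of the CM H3K9me2 domain. An ESC Lamin B domain adjoined its left edge, and an ESC H3K9me2 domain adjoined its right edge. Here the CM lists joined what the ESC lists held as separate pieces.

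On chromosome 16 the same pattern was seen 3 times within a CM Lamin B domain of 19393 kb (chr16:65296001-84689000) and a CM H3K9me2 domain of 19060 kb (chr16:65640001-84700000). The stretches chr16:76130001-76690000 (560 kb) and chr16:76860001-77166000 (306 kb) lay in the same gap between ESC Lamin B domains, 1053 kb wide. The third, chr16:78190001-78650000 (460 kb), had ESC H3K9me2 at both edges and ESC Lamin B 7 kb to its left and 10 kb to its right. ESC Lamin B covered 91.8% of the CM Lamin B domain and ESC H3K9me2 85.8% of the CM H3K9me2 domain. These were gaps in an otherwise common block.

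Other long stretches lay in CM Lamin B domains that touched no ESC Lamin B domain. On chromosome 19, chr19:9340001-9780000 (440 kb) lay in a CM Lamin B domain of 682 kb, and chr19:8080001-8470000 (390 kb) in a CM Lamin B domain of 880 kb. Both had ESC H3K9me2 at each edge, and the nearest ESC Lamin B domain was 1578 kb and 2888 kb away. The stretch chr16:7940001-8250000 (310 kb) likewise had ESC H3K9me2 at both edges, with the nearest ESC Lamin B domain at 10839 kb. In these 3 places CM Lamin B covered a region in which ESC held H3K9me2 in pieces.

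At chr16:3240001-3641000 (401 kb) neither ESC antibody had a domain nearby. The nearest ESC H3K9me2 domain was 2439 kb away and the nearest ESC Lamin B domain 15448 kb, the farthest of any jointly gained stretch. The CM Lamin B domain there was 407 kb long and the CM H3K9me2 domain 480 kb. At chr13:68200001-68600000 (400 kb) both CM domains began at the same kb, and an ESC H3K9me2 domain adjoined the right edge. At chr14:19872001-20220000 (348 kb) an ESC Lamin B domain adjoined the left edge, and the CM H3K9me2 domain stopped at the right edge.

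**Figure D1:**
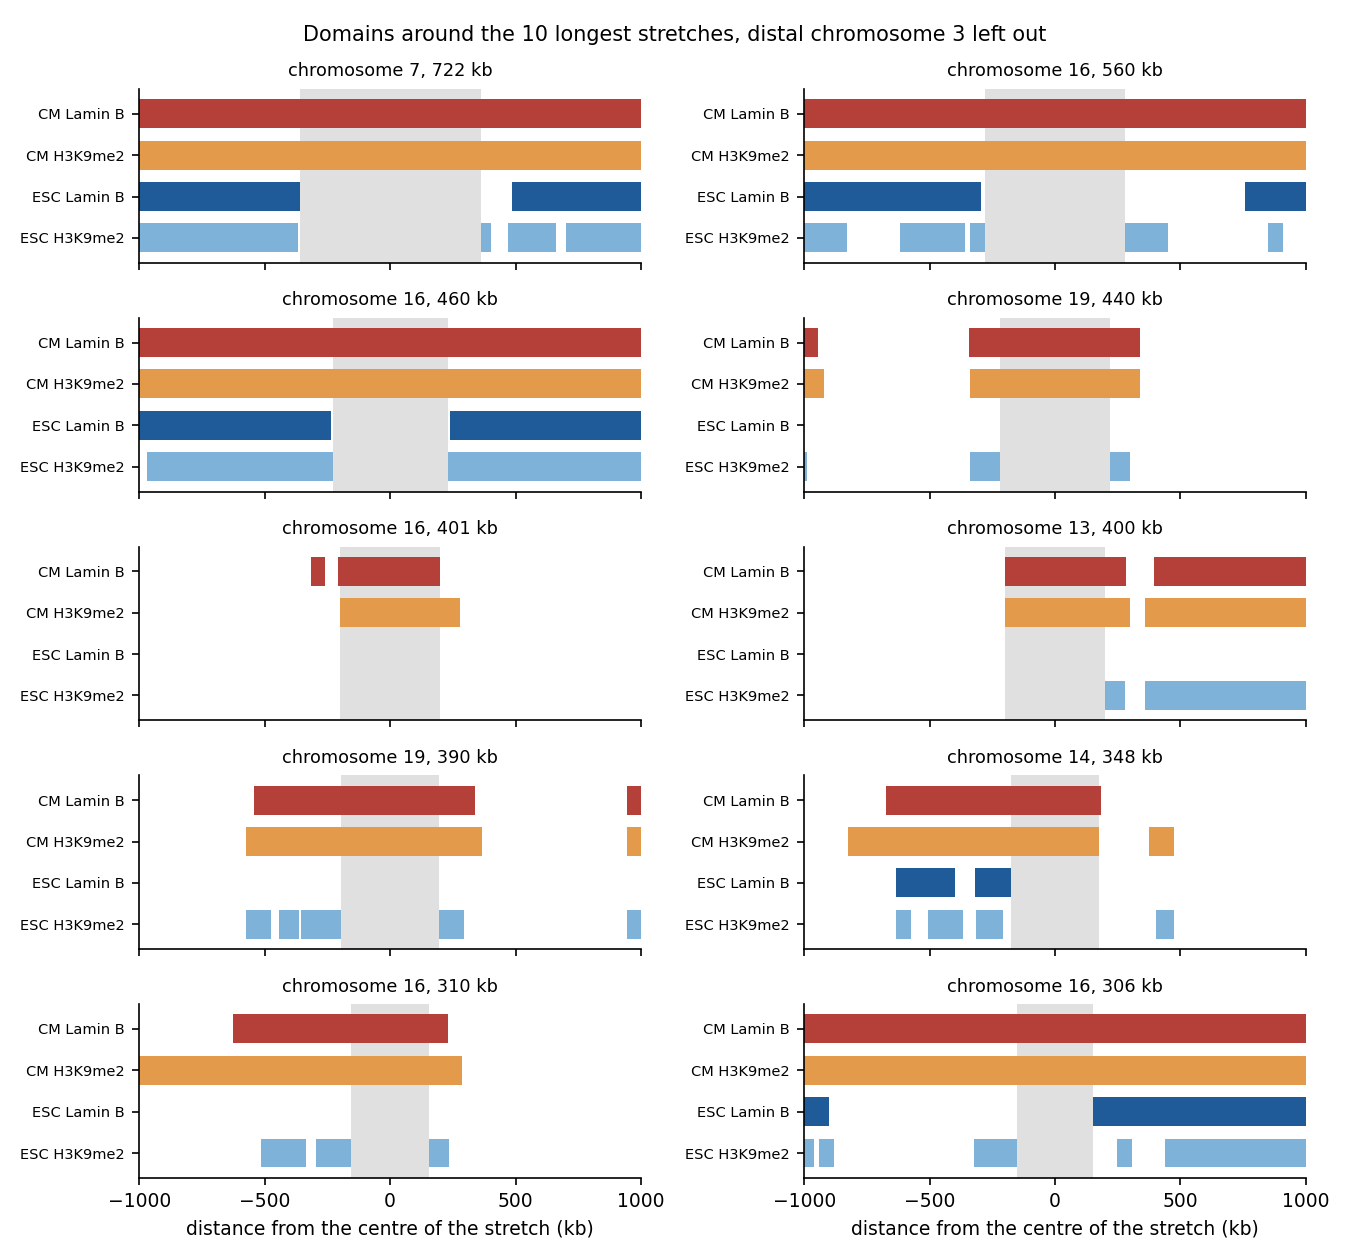
Domains of the 4 lists around the 10 longest jointly gained stretches with distal chromosome 3 left out, 1 panel each, by distance from the centre of the stretch in kb. Bars are domains (CM Lamin B, CM H3K9me2, ESC Lamin B and ESC H3K9me2 from top to bottom) and the grey band is the stretch, 722 to 306 kb long. Both CM bars cross each band and no ESC bar enters it, by the rule that chose the stretches.

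Most jointly gained stretches were far shorter than these. Their median length was 38 kb, with quartiles of 20 kb and 79 kb, and 67 of 361 were at least 100 kb long. Those 67 held 61.1% of the sequence, or 56.0% without distal chromosome 3. Stretches under 50 kb numbered 219. Beyond the distal chromosome 3 stretch, 2 were at least 500 kb long.

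The short stretches approached the resolution of the lists, whose domain lengths and edges step in multiples of 11 kb for CM Lamin B, 20 kb for CM H3K9me2, 9 kb for ESC Lamin B and 10 kb for ESC H3K9me2. Stretches narrower than a 20 kb bin numbered 89, and 40 were exactly 10 kb long. Of those 40, 30 were a gap of 1 bin between ESC H3K9me2 domains. At the minimum length, 14 stretches of 9 kb fell just outside it, against 40 of 10 kb and 8 of 11 kb just inside. In all, 150 stretches were too short to count, with 0.658 Mb between them.

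Joint loss, the opposite state with both ESC lists and neither CM list, was rarer. It came to 62 stretches with 3.16 Mb, against 361 stretches with 27.0 Mb for joint gain. The gained sequence was 8.55 times the lost sequence, or 7.54 times without distal chromosome 3. Median lengths were alike, 38 kb for gained and 40 kb for lost stretches, while the longest lost stretch was 215 kb. The ratio was 4.98 when each list was limited to domains at or above its median score. It was 1.91 with ESC domains widened by 20 kb on each side and 2.42 with CM domains trimmed by 20 kb, and both of these changes add to the lost sequence by construction. Gain also exceeded loss for either antibody alone. For Lamin B, 114 Mb lay in the CM but not the ESC list and 29.7 Mb in the ESC but not the CM list. For H3K9me2 the amounts were 138 Mb and 58.7 Mb. An excess of gain was thus not particular to the joint stretches.

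**Figure D2:**
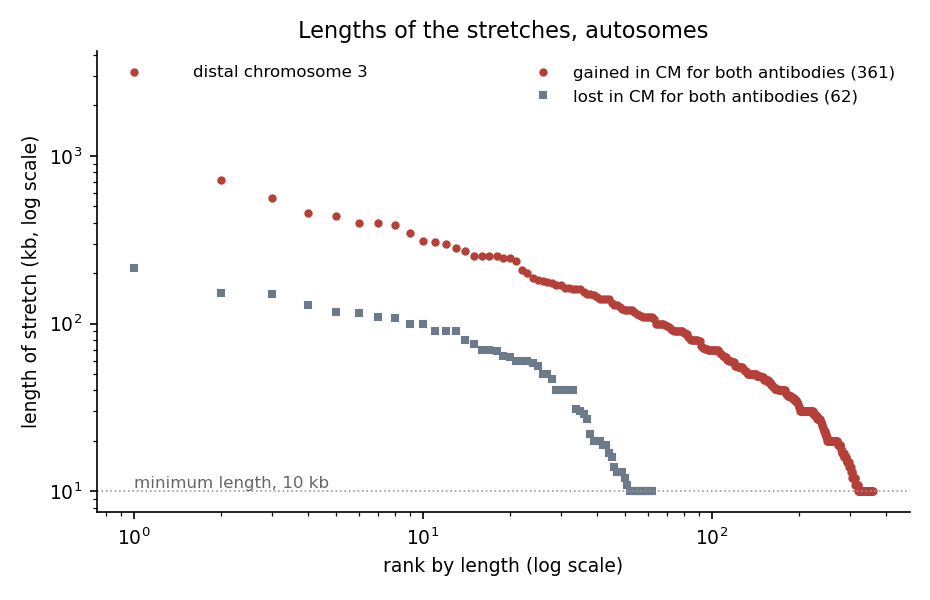
Length of each stretch in kb (log scale) against its rank by length (log scale), for the 361 stretches gained in CM for both antibodies and the 62 lost for both. The highest point is the 3177 kb stretch of distal chromosome 3, and the longest lost stretch is 215 kb.

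Joint gain was a minor part of the CM-only sequence of each antibody. The stretches made up 23.6% of the 114 Mb of autosomal sequence in the CM but not the ESC Lamin B list, and 19.6% of the 138 Mb in the CM but not the ESC H3K9me2 list. Without distal chromosome 3 these shares were 21.8% and 17.7%. The CM-only sequence of an antibody includes positions in the ESC list of the other antibody, which the rule leaves out. From sequence in neither ESC list, 27.7 Mb entered both CM lists, 14.4 Mb the CM Lamin B list alone and 70.0 Mb the CM H3K9me2 list alone, with no minimum length. There the joint part was 65.8% of the Lamin B gain and 28.3% of the H3K9me2 gain (66.5% and 25.9% without distal chromosome 3). These shares were below the overlap of the CM lists over all autosomes. The CM Lamin B list held 1097 Mb in all and the CM H3K9me2 list 1295 Mb. Sequence in both CM lists and both ESC lists alone came to 919 Mb. For comparison, jointly lost stretches were 10.6% of the ESC-only Lamin B and 5.38% of the ESC-only H3K9me2 sequence.

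The edges of the stretches show which domain changed there. Each of the 361 stretches has 2 edges, and at 352 of the 722 (48.8%, Wilson 95% interval 45.1 to 52.4) an ESC H3K9me2 domain began while both CM domains went on. At 149 edges (20.6%, 17.8 to 23.7) the CM Lamin B domain ended while CM H3K9me2 went on. At 123 edges (17.0%, 14.5 to 20.0) an ESC Lamin B domain began, and at 81 (11.2%, 9.12 to 13.7) the CM H3K9me2 domain ended. Edges at which both antibodies changed in the same kb were few, 10 at CM domain ends and 7 at ESC domain starts. Their small number is largely set by the bins. Edges step by 11 kb and 20 kb in CM and by 9 kb and 10 kb in ESC, and such steps seldom coincide. It therefore does not tell how often both antibodies changed together. These intervals and those below treat edges and stretches as independent and cover counting error only. They do not cover the bins. Where 2 domains change within a bin of each other, which changed first is not resolved. At the right edge of chr4:59983001-60236000, CM Lamin B ended at 60236000 and CM H3K9me2 at 60240000. The share at ESC H3K9me2 domains was 39.1% both with domains at or above the median score and with gaps under 100 kb closed.

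By both edges together, 143 stretches lay between ESC domains, 196 had an ESC domain at 1 edge, and 22 touched none. The 22 were longer, with a median of 108.5 kb against 36 kb for the 339 that touched an ESC domain, and they held 5.77 Mb (2.60 Mb in 21 stretches without distal chromosome 3). The rule bears on this difference, since an ESC domain cuts short the stretches that touch it. The commonest pair of edges was an ESC H3K9me2 domain on each side, in 90 stretches with a median of 30 kb. Of these 90, 52 were under 50 kb and 16 were at least 100 kb long. The next was an ESC H3K9me2 domain on 1 side and the end of CM Lamin B on the other, in 80 stretches.

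An ESC H3K9me2 domain adjoined 267 of the 361 stretches, and an ESC Lamin B domain adjoined 118. The median distance to the nearest ESC Lamin B domain was 28 kb, with an upper quartile of 375 kb. At least 100 kb separated 139 stretches from ESC Lamin B and 23 from ESC H3K9me2. At this distance from both were 17 stretches with 5.38 Mb, or 16 with 2.21 Mb without distal chromosome 3. H3K9me2 domains were also the more numerous, 2431 in ESC against 708 for ESC Lamin B on the autosomes, so more edges were there to be met.

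The surroundings stayed dense in CM domains. With distal chromosome 3 left out, CM Lamin B covered 73.0% and CM H3K9me2 79.2% of the positions 50 kb outside an edge. ESC Lamin B covered 31.9% and ESC H3K9me2 64.0% of these positions. At 495 kb the shares were 53.6% for CM Lamin B, 62.8% for CM H3K9me2, 42.2% for ESC Lamin B and 52.1% for ESC H3K9me2. Over all autosomes the shares were 45.9%, 54.2%, 42.4% and 50.9% in the same order of lists. At 50 kb ESC Lamin B was below its autosomal share and ESC H3K9me2 above its own. ESC Lamin B was still below its share at 200 kb, at 38.0%. ESC H3K9me2 was by then close to its own share and wavered around it, with 50.0% at 200 kb and 52.9% at 250 kb. The rule fixes part of the values at the edge itself, and coverage along a chromosome is not independent between neighbouring positions.

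**Figure D3:**
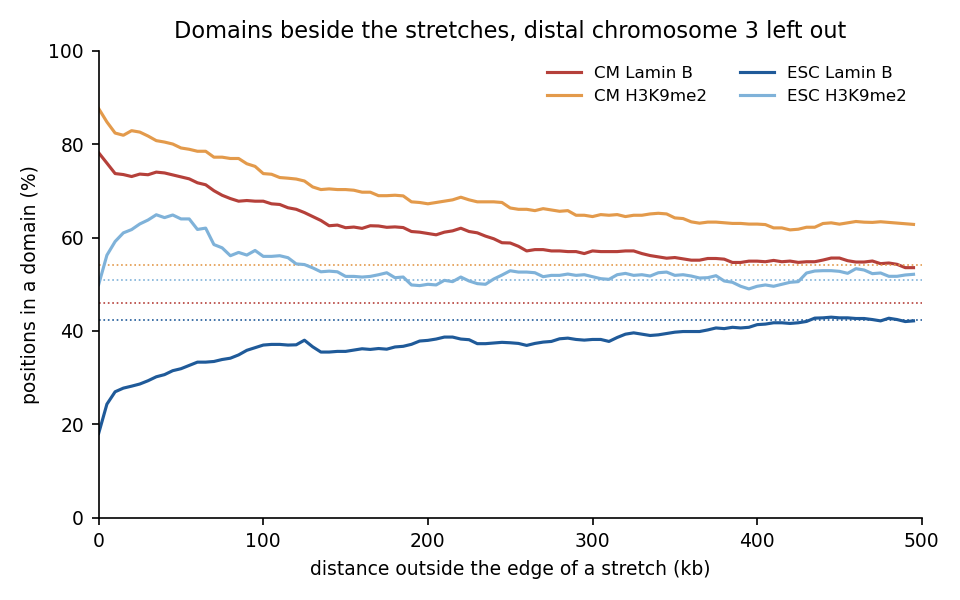
Percentage of positions that lie in a domain of each list (solid lines) by distance outside the edges of the 360 stretches without distal chromosome 3, in kb, both sides pooled. Dotted lines are the share of the autosomes in each list. At 50 kb ESC H3K9me2 stands at 64.0% and ESC Lamin B at 31.9%, against autosomal shares of 50.9% and 42.4%.

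Where a run of CM-only Lamin B held a stretch, H3K9me2 was partly CM-only and partly common to both cell types. Unbroken runs of CM-only Lamin B of 10 kb or more with a stretch inside numbered 293 and covered 58.0 Mb. H3K9me2 was CM-only over 46.8% of that sequence, common to CM and ESC over 41.7%, ESC-only over 0.687% and absent from both lists over 10.8%. Without distal chromosome 3 there were 292 such runs with 52.7 Mb, and H3K9me2 was CM-only over 45.4%, common over 45.9% and absent from both lists over 8.02%. The 409 other runs of CM-only Lamin B, without a stretch, covered 55.2 Mb. There H3K9me2 was common to CM and ESC over 80.1% and CM-only over 0.496%. The rule fixes that runs with a stretch hold some CM-only H3K9me2 and that the others hold little. A stretch filled a median of 36.4% of its CM-only Lamin B run, and 64 stretches filled the whole run.

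Where a run of CM-only H3K9me2 held a stretch, the stretch was usually most of that run. A stretch filled a median of 92.0% of its run of CM-only H3K9me2, and 144 of 361 filled it wholly. The 354 runs of CM-only H3K9me2 with a stretch covered 40.3 Mb, of which 67.0% was CM-only Lamin B, 12.4% was Lamin B of both cell types and 20.6% was outside Lamin B in both. Without distal chromosome 3 the 353 runs covered 37.1 Mb, and these shares were 64.2%, 13.4% and 22.4%. Most CM-only H3K9me2 lay elsewhere, in 1633 runs without a stretch that covered 97.3 Mb. Of that sequence 0.661% was CM-only Lamin B, 34.2% was Lamin B of both cell types and 63.4% was outside Lamin B in both. The rule fixes that runs with a stretch hold CM-only Lamin B and that the others hold little.

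The CM domains that held the stretches mostly touched ESC domains of the same antibody, and so did the other CM domains. The 361 stretches lay in 243 CM Lamin B domains and 240 CM H3K9me2 domains. Of the 243, 160 touched an ESC Lamin B domain, a smaller share than the 461 of the 583 other CM Lamin B domains. For CM H3K9me2 it was 223 of the 240, near the share of the others (848 of 900). The rule bears on both comparisons, since a CM domain that touches no ESC domain of its antibody is open to a stretch over more of its length. The CM Lamin B domain touched no ESC Lamin B domain for 113 stretches (31.3%, Wilson 26.7 to 36.3), exactly 1 for 146 and at least 2 for 102. The CM H3K9me2 domain touched no ESC H3K9me2 domain for 19 stretches (5.26%, 3.40 to 8.07), exactly 1 for 77 and at least 2 for 265 (73.4%, 68.6 to 77.7). Both CM domains were without an ESC counterpart for 17 stretches, which held 5.34 Mb (16 stretches and 2.16 Mb without distal chromosome 3). With gaps under 100 kb closed in every list, 25.8% of stretches lay in a CM Lamin B domain that touched no ESC domain, and among stretches of at least 100 kb 40.3% did.

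CM Lamin B domains with no ESC counterpart were short whether or not they held a stretch. The 83 that held one had a median length of 187 kb and a median score of 6.66, and the 122 that held none had 165 kb and 4.76. The score is the authors' own value per domain in each deposited list, and neither labels nor headers state its scale. Per kb the median scores were 0.0402 and 0.0304. Among CM H3K9me2 domains with no ESC counterpart, the 17 with a stretch had a median length of 200 kb and 0.0259 per kb, and the 52 without had 160 kb and 0.0197 per kb. A longer domain has more room for a stretch, and none of these differences was tested.

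ESC domains that adjoined a stretch had median lengths near those of the others in their list. The 289 adjoining ESC H3K9me2 domains had a median length of 130 kb and a median score of 3.69, and the other 2142 had 140 kb and 4.15. The 117 adjoining ESC Lamin B domains had a median length of 540 kb and a median score of 14.7, and the other 591 had 477 kb and 15.3. The quartiles of length overlapped in both lists, and for ESC Lamin B they were 216 kb and 1026 kb for the adjoining domains and 229.5 kb and 1345.5 kb for the others.

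Joint gain was uneven among chromosomes. By share of span chromosome 16 was the highest, with 36 stretches and 4.08 Mb (4.33%). Chromosome 3 had as many stretches and more sequence, 36 and 5.52 Mb (3.53%), of which 2.35 Mb (1.55%) lay before the distal segment. Chromosomes 19, 18, 7 and 14 followed with 2.34%, 1.79%, 1.76% and 1.61% of their span. The median over the 19 autosomes was 0.855%. At the low end, chromosome 8 had 0.142% in 7 stretches, and chromosome 11 had 1 stretch of 24 kb, chr11:71190001-71214000.

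Joint gain exceeded joint loss on 18 of the 19 autosomes. The excess was slight on chromosome 8 (0.183 Mb gained, 0.174 Mb lost) and small on chromosome 2 (0.454 Mb and 0.375 Mb). Chromosome 11 was the exception, with 0.024 Mb gained and 0.722 Mb lost in 12 stretches. Chromosomes 3, 10 and 16 had no jointly lost stretch. On chromosome 16, 53.1% of all CM-only Lamin B sequence was jointly gained, against 3.26% on chromosome 11 and 4.50% on chromosome 8. Chromosomes are not replicates, and none of these differences was tested.

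**Figure D4:**
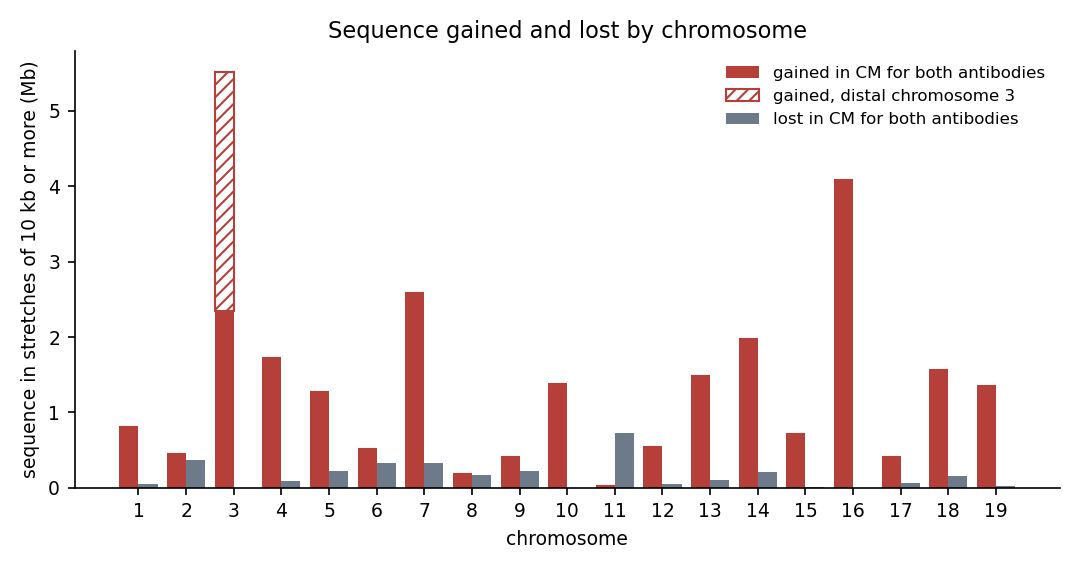
Sequence in stretches of 10 kb or more by chromosome, in Mb: gained in CM for both antibodies (left bars, with the distal chromosome 3 stretch hatched) and lost for both (right bars). Chromosome 16 has 4.08 Mb gained and none lost, and chromosome 11 has 0.024 Mb gained and 0.722 Mb lost.

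On the chromosomes with none of the 10 longest stretches above, and with chromosome 11 and distal chromosome 3 left out, the longest stretch was between 51 kb and 300 kb long. On 5 of them it lay within 1 Mb of the first domain of the chromosome. These were chr9:3040001-3340000 (300 kb), chr15:3003001-3249000 (246 kb), chr18:3014001-3260000 (246 kb), chr6:3003001-3124000 (121 kb) and chr8:3729001-3780000 (51 kb). Elsewhere the longest were chr3:91827001-92080000 (253 kb, the longest on chromosome 3 before the distal segment), chr4:59983001-60236000 (253 kb), chr5:42093001-42280000 (187 kb) and chr17:51870001-52030000 (160 kb). Shorter ones were chr10:129660001-129800000 (140 kb), chr2:23769001-23895000 (126 kb), chr1:22250001-22340000 (90 kb) and chr12:10540001-10610000 (70 kb). On chromosomes 2, 3 and 5 they adjoined an ESC Lamin B domain at the left edge, and on 10, 12 and 17 they lay between ESC H3K9me2 domains.

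The chromosome starts were rich in joint gain. Mouse autosomes carry the centromere at this end. The first 10% of each span held 29.6% of the stretches. Of the sequence there in neither ESC list, 8.27% was jointly gained, counted with no minimum length, against 1.64% in the rest of the span without distal chromosome 3. The first 10% held 8.73% of the sequence in neither ESC list but 32.6% of the jointly gained sequence, both without distal chromosome 3. In the first 5 Mb the share was 9.39%, against 1.91% beyond. It was higher in the first 5 Mb than in the rest of the chromosome on 15 of 19 autosomes, the exceptions being 7, 11, 17 and 19. Some of the 15 rest on little sequence. Chromosomes 1 and 2 had 1 stretch each there (0.01 Mb and 0.038 Mb), and chromosome 3 had only 0.132 Mb in neither ESC list.

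Each antibody alone leaned the same way. The first 10% held 23.3% of CM-only Lamin B and 21.7% of CM-only H3K9me2 sequence without distal chromosome 3. CM Lamin B covered 58.2% and CM H3K9me2 64.7% of the first 10%, while ESC Lamin B covered 48.3% and ESC H3K9me2 54.4%. Of the jointly lost sequence, 13.4% lay in the first 10%. In the last 10%, 2.44% of the sequence in neither ESC list was jointly gained, and 0.384% without distal chromosome 3. What lies behind this unevenness was not tested.

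**Figure D5:**
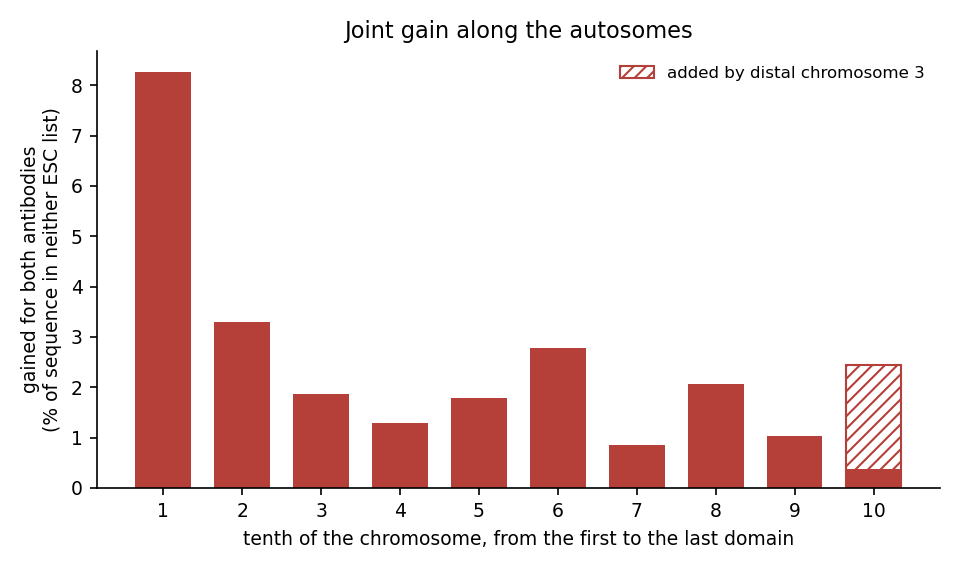
Jointly gained sequence as a percentage of the sequence in neither ESC list, in 10 equal parts of each autosome from its first to its last domain, all autosomes pooled and no minimum length. The first part stands at 8.27%, and the hatched piece of the last part (0.384% without it, 2.44% with it) is the distal chromosome 3 segment.

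Jointly gained stretches often lay near each other. Another lay within 1 Mb of 246 of the 361 and within 100 kb of 99, and the median distance to the nearest was 229 kb. The rule bears on this, since ESC domains inside 1 CM domain cut its gain into several stretches. A CM Lamin B domain held up to 5 stretches and a CM H3K9me2 domain up to 6. Stretches of other states were not compared for nearness. Joined across distances of up to 1 Mb, the jointly gained stretches formed 201 groups. Of these groups 115 were a lone stretch and 10 had at least 5, with 61 stretches in all. The groups described next were picked after their values were seen, as those with the most jointly gained sequence outside distal chromosome 3.

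The group chr19:7800001-9900000 had 6 stretches with 953 kb in 2100 kb. CM Lamin B covered 71.2% and CM H3K9me2 72.4% of it, while ESC Lamin B covered 0% and ESC H3K9me2 25.7%. The group chr3:91827001-94061000 had 7 stretches with 891 kb. CM Lamin B covered 73.4% and CM H3K9me2 77.6% of it, while ESC Lamin B covered 27.4% and ESC H3K9me2 30.4%. The group chr16:76130001-77166000 had 2 stretches with 866 kb, ESC Lamin B at 0% and ESC H3K9me2 at 16.4%, under CM domains of both antibodies over its whole length. The group chr7:10590001-12190000 had 3 stretches with 813 kb, also under both CM domains throughout, with ESC Lamin B at 46.7% and ESC H3K9me2 at 45.0%. The 10 groups with the most sequence held 28.2% of the total without distal chromosome 3.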

How the data were processed

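Lamin B and H3K9me2 ChIP-seq and input libraries (18 in all) were grouped by the titles in the labels. Reads were processed with STAR, Picard and deepTools on build mm9, per the submitters' processing notes, with no versions given. The deposited lists hold domain positions and the authors' score per domain, and per the file headers carry the settings g 10, bin auto and fdr 5. Neither labels nor headers name the domain caller.

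Domains were placed on a 1 kb grid, and stretches, edges, neighbours and host domains were computed with numpy 2.4.6, pandas 2.3.3 and Python 3.11.15. Wilson 95% intervals came from scipy 1.17.1, and figures from matplotlib 3.10.9. The search for stretches was tested on simulated data. The rule and descriptions were chosen with earlier results of these data known. Named regions were the 10 longest stretches without distal chromosome 3, the longest within it, and the longest on each autosome. Genes and sequences were not analysed here, since no mm9 reference was used. Alternatives varied the minimum length, the grid, the domain edges, the score filter, closed gaps and the chromosomes.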

Additional observations from a re-analysis of the deposited data

How the results depend on the processing

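Of 71 values under 11 alternatives, 45 stayed within 1.5 times the reported count or amount, or within the interval of a reported share. Gained exceeded lost sequence under all 11 (1.91 to 12.7 times); the ratio moved to 4.98 with domains at or above the median score, 1.91 with ESC domains widened by 20 kb and 2.42 with CM domains trimmed by 20 kb. The number of gained stretches was 142 at a minimum of 50 kb, 67 at 100 kb, 184 under the score filter, 200 with widened ESC domains and 221 with gaps under 100 kb closed. Gained sequence moved beyond 1.5 times only at 100 kb, to 16.5 Mb. Lost stretches numbered 115, 41, 27 and 10 at minimum lengths of 1, 20, 50 and 100 kb, 40 under the score filter, 357 with widened ESC and 372 with trimmed CM domains. They held 1.30 Mb at 100 kb, 5.81 Mb under the score filter, 9.98 Mb with widened ESC and 9.24 Mb with trimmed CM domains. The median length of gained stretches was 160 kb at 100 kb and 78.5 kb under the score filter. Edges at an ESC H3K9me2 domain were 39.1% under the score filter and with gaps closed, and stretches in CM Lamin B domains with no ESC counterpart 40.3% at 100 kb and 25.8% with gaps closed. Minimum lengths and shifted edges move these values by construction; the cause was not tested for the score filter. No paired analysis was possible because several libraries share 1 list, and no library could be left out. Genes counted by their start or by coverage were not compared. Depth is unknown.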

Other observations

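Chromosome X was outside the rule, and its values stand apart from those above. By the same definition it had 61 jointly gained stretches with 4.96 Mb, 3.03% of its span, and 12 jointly lost stretches with 0.741 Mb. Its gained stretches had a median length of 57 kb, and the longest was 380 kb. With X added to the autosomes there were 422 gained stretches with 32.0 Mb.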
